A study of Mus musculus with 6 samples.

Results

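Collagen VI and the fibril-associated collagens XII, XIV and XVI were examined in dorsal skin from the tight skin (TSK) mouse and its wild-type (WT) littermates. The members were picked by gene name and were Col6a1, Col6a2, Col6a3, Col6a5, Col6a6, Col12a1, Col14a1 and Col16a1, which makes 8 of the 55291 genes in the expression tables. Bulk RNA was sequenced from shaved dorsal skin of 3 TSK mice and 3 WT littermates, with 1 library per mouse. All mice were C57BL/6 and 6 to 8 weeks old by the labels, and TSK mice are heterozygous for a duplication inside Fbn1, the fibrillin-1 gene, that is kept on C57BL/6 by backcrossing. The labels call the mice female, whereas the methods describe males, and sex was not analysed here. Every cell of a TSK mouse carries the mutation, so the model does not single out a cell type of the skin.

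Collagen VI is a microfilament collagen. The products of Col6a1, Col6a2 and Col6a3 wind together into a triple helix, and the helices are joined end to end into beaded filaments that lie around cells and between the thick collagen fibrils. The chains encoded by Col6a5 and Col6a6 are long relatives of the Col6a3 chain and are thought to take its place in some filaments. Collagens XII, XIV and XVI are fibril-associated collagens with interrupted triple helices. They do not build fibrils of their own, and collagens XII and XIV sit on the surface of collagen I fibrils, whereas collagen XVI of the upper dermis has been found on fibrillin microfibrils.

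The feature that makes all 8 genes collagens is a run of codons in which each glycine is followed by 2 other amino acids. One whole coding exon is shown for 4 of them, so that the repeat can be read beside the levels given later. Each exon is 54 bases long, holds 6 triplets, and is written 5′ to 3′ on the coding strand, with the glycine codons (GGN) in capitals. The sequences were taken from GENCODE M21 transcripts on GRCm38. They come from coding exon 9 of 35 of Col6a1 (chr10:76719623-76719676, minus strand), coding exon 22 of 43 of Col6a3 (chr1:90791924-90791977, minus strand), coding exon 56 of 65 of Col12a1 (chr9:79612916-79612969, minus strand) and coding exon 38 of 47 of Col14a1 (chr15:55472927-55472980, plus strand).
Col6a1: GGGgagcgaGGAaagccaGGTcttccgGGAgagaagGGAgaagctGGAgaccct
Col6a3: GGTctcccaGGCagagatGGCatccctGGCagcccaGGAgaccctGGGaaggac
Col12a1: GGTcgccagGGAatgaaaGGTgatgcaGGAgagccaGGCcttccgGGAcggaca
Col14a1: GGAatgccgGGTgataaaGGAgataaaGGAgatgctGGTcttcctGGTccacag

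The members differed widely in how much of the chain this repeat takes up. Runs of at least 5 triplets held 32.2% of the 1025 codons of Col6a1 and 31.9% of the 1034 codons of Col6a2, and the longest run was 87 triplets in both. In Col6a3 they held 10.1% of 3284 codons, in Col6a5 11.8% of 2640 and in Col6a6 14.3% of 2265. Thus the 3 long collagen VI chains are mostly made of other sequence. Among the fibril-associated collagens the share was 8.20% of 3065 codons in Col12a1 and 14% of 1798 codons in Col14a1, each with a longest run of 32 triplets. Col16a1 stood apart with 63.2% of 1580 codons in 21 runs. The longest run in Col16a1 was 52 triplets, so its repeat is broken into many pieces.

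Some members are neighbours in the genome (GRCm38). Col6a2 (chr10:76595762-76623630) and Col6a1 (chr10:76708792-76726168) lie on the minus strand of chromosome 10, 85.2 kb apart. Col6a6 (chr9:105687809-105828160) and Col6a5 (chr9:105856078-105960643) lie on the minus strand of chromosome 9, separated by 27.9 kb with 0 annotated genes between them. Col12a1 (chr9:79598991-79718831, minus strand) is elsewhere on chromosome 9. Col6a3 is on chromosome 1 (chr1:90765923-90843971, minus strand), Col14a1 on chromosome 15 (chr15:55307750-55520803, plus strand) and Col16a1 on chromosome 4 (chr4:130047840-130099283, plus strand). Col6a6, Col12a1 and Col14a1 have antisense genes within their bounds, and Col6a3 overlaps a gene model on its own strand. The libraries were stranded, but the strand setting used for counting is not given in the sources used here, so reads of such overlapping genes could be shared. In the longest coding transcripts, only Col6a6 had a stretch of at least 50 bases at 95% identity in an overlapping gene, the antisense Gm38314. Other transcripts of the members were not searched.

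Col6a5 and Col6a6 are near copies over part of their coding sequence. A stretch of 572 aligned bases was 96.9% identical, and its longest identical run was 219 bases, well over the read length of 50 bases. A window of 60 bases from exon 3 of each gene is shown, with the single differing base in capitals, since reads from such windows bear on the Col6a5 values. It lies at chr9:105945937-105945996 in Col6a5 and at chr9:105786129-105786188 in Col6a6, both on the minus strand.
Col6a5: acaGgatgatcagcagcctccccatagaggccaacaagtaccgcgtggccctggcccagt
Col6a6: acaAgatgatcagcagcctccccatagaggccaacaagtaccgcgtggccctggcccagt
Of all words of 50 bases in the Col6a6 transcript, 3.69% also occur in Col6a5. The other 6 members had no stretch of at least 50 bases at 95% identity in another annotated gene.

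Library totals were 17561453 to 19219814 counts and overlapped between genotypes. Levels are given as CPM (counts scaled to 1000000 per library) after TMM scaling, which scales each library by a trimmed mean of its log ratios to a reference library so that a few very abundant genes weigh less. TMM factors spanned 0.823 to 1.03 for the WT mice and 1.06 to 1.13 for the TSK mice. Without this scaling, the median over the 19971 genes tested shifted on the log2 scale from -0.03 to 0.25, and that of the members from 0.43 to 0.73. The limma-trend fits given below used the deposited CPM, also without TMM scaling. Their medians over these genes were 0.2 and 0.25 with pseudocounts of 1 and 0.1, so their calls carry this upward shift. Fbn1, the mutated gene, was 303 ± 45.6 CPM in WT and 1761 ± 302 in TSK (SD, n = 3 mice per group throughout), and every TSK mouse was above every WT mouse. In bulk skin, fewer cells of a type and less RNA per cell cannot be told apart, and this holds for every value that follows.

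Across the members, the clearest difference was in Col14a1, which was about 4 times as high in TSK skin, followed by Col12a1, whereas the levels of Col6a1, Col6a2 and Col6a3 overlapped between the genotypes after TMM scaling. Of the 8 members, 1 passed an adjusted p of 0.05 as higher in TSK (edgeR quasi-likelihood test, Benjamini-Hochberg over all tested genes) and 0 as lower, beside 2.71% and 0.681% of all tested genes. DESeq2 also called 0 members lower, beside 1.18% of all genes, and so did limma-trend, beside 0.501% with a pseudocount of 1 and 0.496% with 0.1. With such low shares, 0 of 8 does not set the members apart from other genes. At the thresholds of the study, an adjusted p below 0.01 and a fold above 2.5, 0 of 8 passed with edgeR, beside 0.255% of all genes higher in TSK, and 1 of 8 with DESeq2, beside 0.894%. At an unadjusted p below 0.05, 4 of 8 were higher in TSK and 0 lower, beside 12.1% of all genes higher and 7.9% lower. DESeq2 called 2 of 8 higher at an adjusted p of 0.05, beside 3.26%. Scaling by library size only gave 2 of 8, beside 8.44%, and the replicate number as a block gave 2 of 8, beside 3.33%. Without the low-count filter 2 of 8 were called, beside 2.99%, and limma-trend called 3 of 8 with a pseudocount of 1, beside 8.87%, and 3 of 8 with 0.1, beside 8.82%. The TMM-scaled levels of the groups did not overlap in 3 of 8 members, all higher in TSK, beside 14.1% of all genes. On the deposited CPM this was so in 6 of 8, beside 29.1%, and Col6a1, Col6a2 and Col16a1 were the members that overlapped only after TMM scaling.

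**Figure D1:**
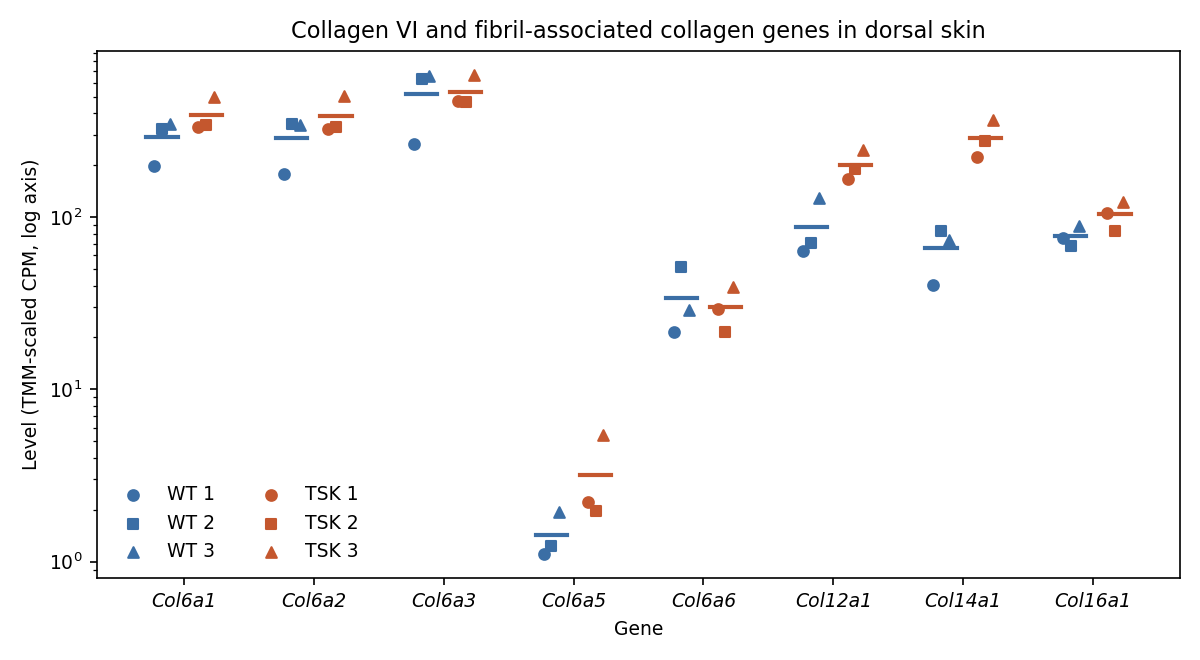
TMM-scaled CPM of the 8 genes in each library on a log axis, with 1 symbol per mouse and a bar at the group mean (WT blue, TSK orange, n = 3 each). The TSK libraries lie above all WT libraries for Col14a1, Col12a1 and Col6a5, and the groups overlap for the other 5 genes.

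Col14a1 encodes the only chain of collagen XIV, a fibril-associated collagen that binds the proteoglycan decorin. The WT mice (WT 1 to 3) had 40.2, 83.5 and 73.5 CPM, and the TSK mice (TSK 1 to 3) had 222, 278 and 368 CPM. The lowest TSK mouse was well above the highest WT mouse. Means were 65.7 ± 22.7 in WT and 290.0 ± 73.6 in TSK, a log2 fold change of 2.14 (SE 0.30, 95% interval 1.46 to 2.82, edgeR adjusted p = 0.0123). Col14a1 thus rose 4.41-fold. The call did not depend on scaling by library size only (2.46, adjusted p = 0.00171) but was lost without WT 3 (2.24, adjusted p = 0.0605). DESeq2 gave an adjusted p of 7.83e-12.

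Col12a1 encodes the only chain of collagen XII, which links collagen I fibrils to other matrix proteins such as tenascin X. It stood at 63.4, 70.7 and 129 CPM in WT and at 166, 190 and 244 CPM in TSK. All TSK mice were above all WT mice, and WT 3 stood higher than the other two. Means were 87.8 ± 36.0 and 200 ± 39.9, a log2 fold change of 1.19 (SE 0.28, 95% interval 0.55 to 1.83, edgeR adjusted p = 0.0602). Col12a1 therefore missed the threshold with edgeR. It passed in 7 of 15 alternatives, among them DESeq2 (adjusted p = 0.000759), library size only (1.48, adjusted p = 0.0116) and the fit without WT 3 (1.59, adjusted p = 0.0473).

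Col16a1 encodes collagen XVI, which has many short helical stretches. It stood at 75.1, 68.0 and 88.3 CPM in WT and at 106, 83.1 and 123 CPM in TSK. TSK 2 was below WT 3, so the groups overlapped. The log2 fold change was 0.43 (SE 0.17, 95% interval 0.03 to 0.83, edgeR adjusted p = 0.216). The 3 fibril-associated collagens were thus 2.14, 1.19 and 0.43 apart from WT on the log2 scale. Within a library, Col16a1 over Col14a1 was 1.76 lower in TSK on the log2 scale, with no overlap (exact permutation test, two-sided, p = 0.1, adjusted p = 0.16 over 24 ratios). For 3 mice against 3, 0.1 is the smallest p this test can give. Col12a1 over Col14a1 was 0.93 lower, also with no overlap (exact permutation p = 0.1, adjusted p = 0.16).

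The chains that form the common collagen VI helix showed smaller differences. Col6a1 was 197, 326 and 347 CPM in WT and 333, 341 and 496 CPM in TSK. Col6a2 was 177, 348 and 343 CPM in WT and 323, 331 and 507 CPM in TSK. Both genes were lowest in WT 1 and highest in TSK 3, and the other 4 mice lay close together. The log2 fold change was 0.43 for Col6a1 (SE 0.25, 95% interval -0.15 to 1.01, edgeR adjusted p = 0.394) and 0.42 for Col6a2 (SE 0.29, 95% interval -0.24 to 1.08, edgeR adjusted p = 0.47). The intervals reach from slightly lower to about 2-fold higher, so no difference was resolved with these 6 mice. With library size only both values were 0.73 (edgeR adjusted p = 0.0724 and 0.103), and on the deposited CPM neither gene overlapped between genotypes. Leaving out each library gave 0.22 to 0.59 for Col6a1 and 0.18 to 0.59 for Col6a2. The lowest values came without TSK 3 (0.22 and 0.18) and without WT 1 (0.24 and 0.19).

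Col6a3, which encodes the longest of the 3 chains, was 265, 635 and 662 CPM in WT and 472, 464 and 670 CPM in TSK. The WT range enclosed nearly all TSK values, and WT 1 was again the lowest mouse. The log2 fold change was 0.04 (SE 0.34, 95% interval -0.73 to 0.81, edgeR adjusted p = 0.965). It was -0.25 without WT 1 and -0.15 without TSK 3, so its sign depended on single libraries. The smallest and greatest values over all alternatives were -0.25 and 0.41.

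**Figure D2:**
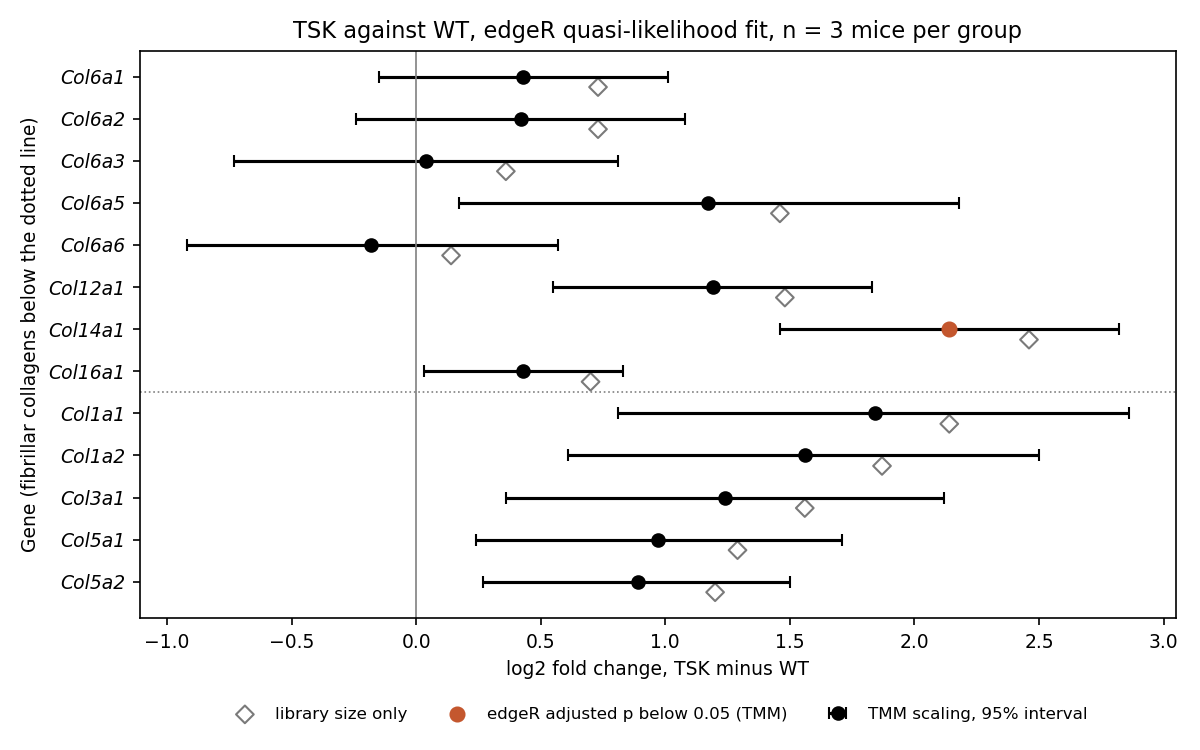
Log2 fold change (TSK minus WT) of the 8 genes and of 5 fibrillar collagen genes, as edgeR estimates with TMM scaling and 95% intervals, with open diamonds for scaling by library size only. Col14a1, at 2.14, is the only gene shown that passed an adjusted p of 0.05, and the intervals of Col6a1, Col6a2, Col6a3 and Col6a6 span 0.

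Col6a1 and Col6a2 moved together from mouse to mouse. The log2 ratio of Col6a1 to Col6a2 in a library was 0.15, -0.09 and 0.02 in WT and 0.04, 0.04 and -0.03 in TSK. It differed between genotypes by -0.01 (exact permutation p = 1, adjusted p = 1 over 24 ratios). The ratio of Col6a3 to Col6a1 was 0.43, 0.96 and 0.93 in WT and 0.51, 0.44 and 0.43 in TSK, so WT 1 resembled the TSK mice (exact permutation p = 0.4, adjusted p = 0.48). Col6a3 over Col6a2 was 0.58, 0.87 and 0.95 in WT and 0.55, 0.49 and 0.40 in TSK. This ratio was lower in all 3 TSK mice than in any WT mouse, by 0.32 on average, though WT 1 and TSK 1 nearly touched (exact permutation p = 0.1, adjusted p = 0.16).

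Of the long collagen VI chains, Col6a6 was 21.4, 51.3 and 29.0 CPM in WT and 29.2, 21.5 and 39.2 CPM in TSK. WT 2 was the highest mouse, and the groups overlapped fully. The log2 fold change was -0.18 (SE 0.33, 95% interval -0.92 to 0.57, edgeR adjusted p = 0.815), which turned to 0.14 with library size only and to 0.26 without WT 2. Col6a5 was near the lower end of what was tested, at 1.11, 1.23 and 1.93 CPM in WT and 2.23, 1.96 and 5.41 CPM in TSK. The groups did not overlap, but WT 3 and TSK 2 were almost level and TSK 3 stood alone at the top. The log2 fold change was 1.17 (SE 0.44, 95% interval 0.17 to 2.18, edgeR adjusted p = 0.186), and it was 0.56 to 1.46 when each library was left out in turn.

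The Col6a5 values rest on 19.3 to 31.2 estimated counts in WT and 41.7 to 115 in TSK. The part of Col6a6 that recurs in Col6a5, 3.69% of its words, corresponds to 14.2 to 30.8 of the Col6a6 counts per library, which is similar to the WT counts of Col6a5. The deposited counts are fractional, and how reads that fit both genes were assigned, and how far this entered the Col6a5 counts, was not tested. Col6a5 over Col6a6 in a library was higher in all TSK mice than in any WT mouse, by 1.15 on the log2 scale (exact permutation p = 0.1, adjusted p = 0.16 over 24 ratios). Col6a5 over Col6a3 was 0.89 higher on average, with overlap (exact permutation p = 0.2, adjusted p = 0.253).

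Levels can be compared between genes only per length, so each was divided by the length of its longest coding transcript. In WT skin the order per kb was Col6a2 (73.3 ± 24.6 CPM per kb), Col6a1 (70.7 ± 19.8), Col6a3 (51.5 ± 21.9), Col16a1 (14.8 ± 1.98), Col14a1 (10.2 ± 3.51), Col12a1 (7.62 ± 3.13), Col6a6 (3.86 ± 1.77) and Col6a5 (0.153 ± 0.0473). Neighbours in this order overlapped except Col6a3 and Col16a1, Col16a1 and Col14a1, and Col6a6 and Col6a5. In TSK skin the order was Col6a2 (98.0 ± 26.3), Col6a1 (95.2 ± 22.5), Col6a3 (53.0 ± 11.6), Col14a1 (44.8 ± 11.4), Col16a1 (20.0 ± 3.87), Col12a1 (17.4 ± 3.47), Col6a6 (3.41 ± 1.01) and Col6a5 (0.345 ± 0.207). Here Col14a1 stood ahead of Col16a1 with no overlap and overlapped with Col6a3. The other pairs of TSK neighbours that did not overlap were Col6a1 and Col6a3, Col12a1 and Col6a6, and Col6a6 and Col6a5.

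The makeup of the 8 genes was compared as shares of their summed level per kb. Col6a1, Col6a2 and Col6a3 together made up 80.6%, 85.8% and 84.6% of the members' level per kb in WT and 74.3%, 73.1% and 74.7% in TSK. Col14a1 made up 4.21%, 4.82% and 4.06% in WT and 12.2%, 14.8% and 13.5% in TSK. For both shares all TSK mice lay on 1 side of all WT mice (exact permutation test, two-sided, p = 0.1, the smallest it can give). Within collagen VI, Col6a3 held 25.6% ± 3.15 of the chains per kb in WT and 21.6% ± 0.651 in TSK, with overlap (exact permutation p = 0.2). The Col6a1 share was 36.8% ± 3.06 in WT and 38.7% ± 0.4 in TSK, with overlap (exact permutation p = 0.4). The Col6a2 share was 37.5% ± 0.808 in WT and 39.7% ± 0.833 in TSK, higher in all TSK mice than in any WT mouse (exact permutation p = 0.1).

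**Figure D3:**
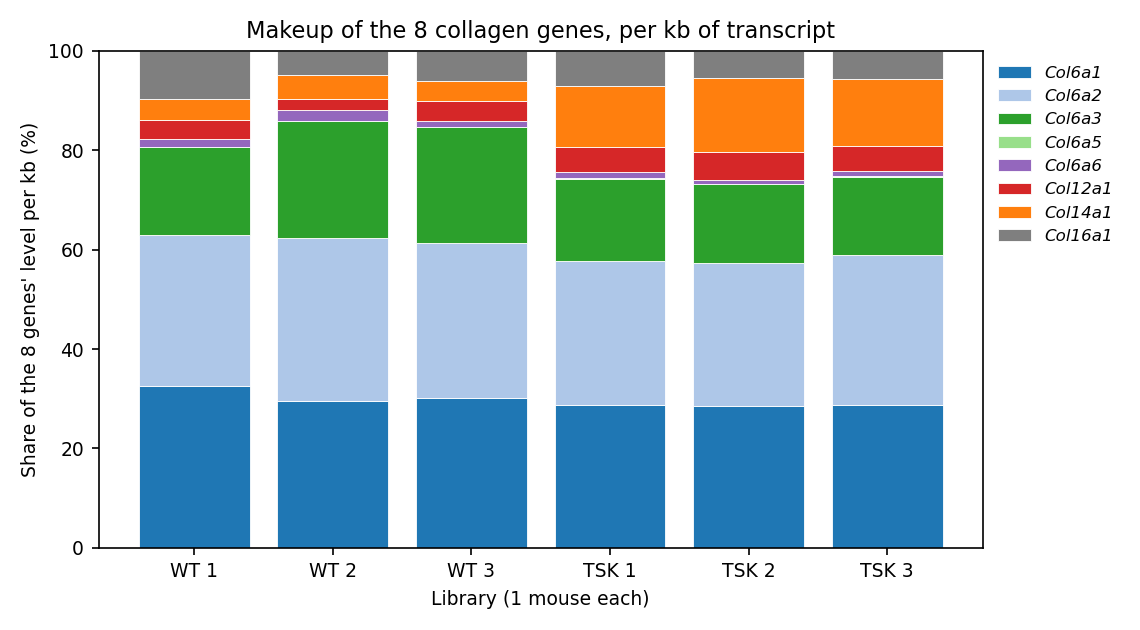
Share of each gene in the summed level per kb of the 8 genes, in percent, with 1 stacked bar per library. Col6a1, Col6a2 and Col6a3 fill 80.6% to 85.8% of the WT bars and 73.1% to 74.7% of the TSK bars, and the Col14a1 band widens from at most 4.82% in WT to at least 12.2% in TSK.

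The fibrils that these collagens decorate are built from collagens I, III and V. In the list of 5 fibrillar genes, 0 passed an adjusted p of 0.05 with edgeR and 5 with DESeq2, and with limma-trend, and all 5 passed an unadjusted p of 0.05 with edgeR. Their median log2 fold change was 1.24, against 0.43 for the members and -0.03 for all tested genes. The members' median was 0.25 without TSK 3 and 0.34 without WT 1. Col1a1 was 3376 ± 835 CPM in WT and 12046 ± 6977 in TSK (log2 fold change 1.84, SE 0.45, edgeR adjusted p = 0.0654). Col3a1 was 3613 ± 1213 and 8534 ± 3100 (1.24, SE 0.38, edgeR adjusted p = 0.119). The levels of all 5 genes did not overlap between genotypes.

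Set against Col1a1 in the same library, which does not depend on how libraries are scaled, the collagen VI genes were lower in TSK. Col6a1 over Col1a1 was -3.64, -3.46 and -3.56 in WT and -4.69, -4.45 and -5.34 in TSK on the log2 scale. That is a ratio 2.42-fold lower in TSK, with no overlap. Col6a2 was 2.41-fold, Col6a3 3.01-fold, Col6a6 3.59-fold and Col16a1 2.46-fold lower relative to Col1a1, and none of them overlapped (exact permutation p = 0.1 each, adjusted p = 0.16 over 24 ratios). The Col6a5 ratio was 1.62-fold lower without overlap at the same p. Col12a1 was 0.48 lower and Col14a1 0.45 higher relative to Col1a1 on the log2 scale, both with overlap (exact permutation p = 0.2 each, adjusted p = 0.253). In TSK 1 to 3 the ratios were -5.70, -5.30 and -6.36 for Col12a1 and -5.27, -4.74 and -5.77 for Col14a1. The size of both differences thus leans on TSK 3. TSK 3, where Col1a1 was highest, had the lowest of the 6 ratios for 6 of the 8 members, all but Col6a5 and Col14a1.

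**Figure D4:**
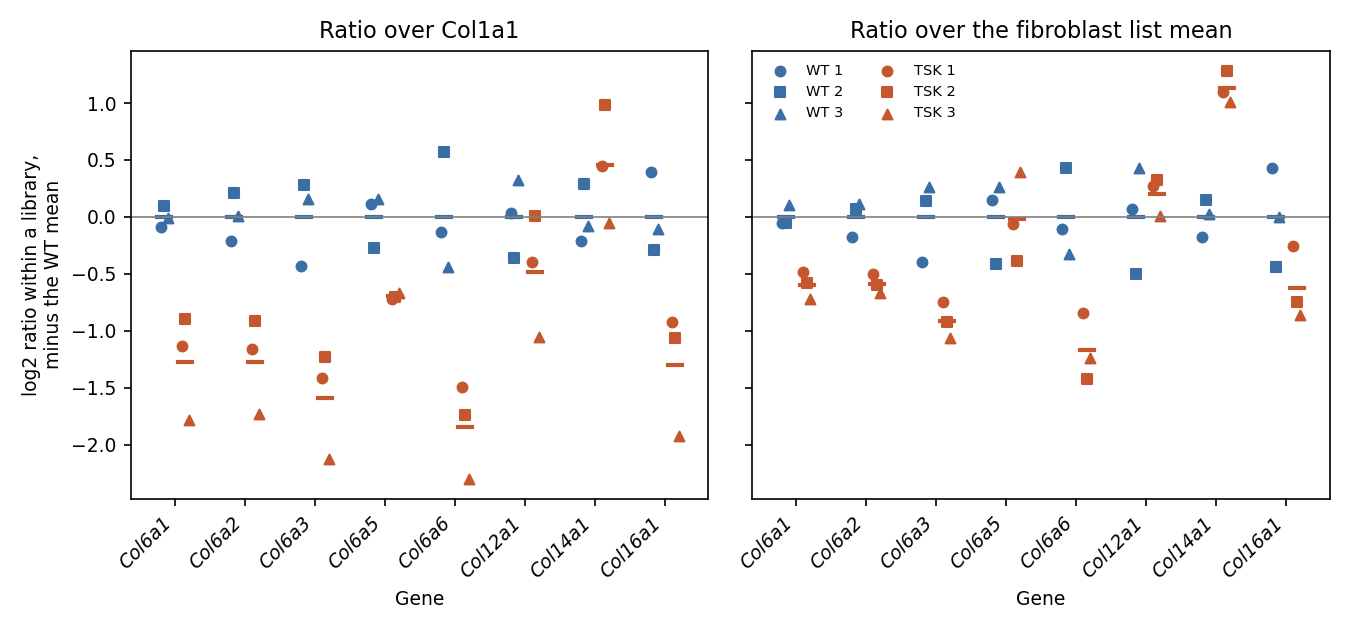
Within-library log2 ratio of each of the 8 genes to Col1a1 (left) and to the geometric mean of 10 fibroblast markers (right), each shown relative to its WT mean, with 1 symbol per mouse and bars at group means. Col6a1, Col6a2, Col6a3 and Col6a6 lie below all WT mice on both sides in TSK, and Col14a1 lies above all WT mice on the right only.

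Fibroblasts are the main source of these collagens in skin, so the fibroblast list was read beside them. All 10 fibroblast markers had a positive log2 fold change (median 1.07), and their summed deposited CPM, without TMM scaling, was 6428 to 9747 in WT and 20607 to 47669 in TSK. With edgeR 2 passed an adjusted p of 0.05 (Dpt and Thy1) and 8 an unadjusted p of 0.05. At an adjusted p of 0.05, 8 passed with DESeq2 and 9 with limma-trend, which used no TMM scaling. Of the 10, 3 (Col1a1, Col1a2 and Col3a1) are collagens themselves and make up most of this sum. Relative to the geometric mean of the list, Col14a1 was -1.32, -0.99 and -1.11 in WT and -0.04, 0.14 and -0.13 in TSK. It was thus 2.19-fold higher in TSK beyond the list, with no overlap (exact permutation p = 0.1, adjusted p = 0.16). Col6a1 and Col6a2 were each 1.51-fold lower, Col6a3 1.88-fold lower and Col6a6 2.24-fold lower relative to the list, with no overlap (exact permutation p = 0.1 each, adjusted p = 0.16). For Col12a1, Col16a1 and Col6a5 the differences were 0.20, -0.62 and -0.02 on the log2 scale, all with overlap (exact permutation p = 0.7, 0.2 and 1). The Col12a1 ratio was -0.66, -1.23 and -0.30 in WT and -0.46, -0.41 and -0.72 in TSK, so the sign of its difference rests on WT 2.

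Other cell types also differed between the libraries, and their part in the members' levels was not tested. The sums of marker lists are again of deposited CPM, without TMM scaling. Adipocyte markers summed to 393 to 490 CPM in WT and 757 to 3603 in TSK, with TSK 2 the highest. Of the 8, 3 passed with edgeR (Cfd, Lep and Plin1), 6 with DESeq2 and 7 with limma-trend. Skeletal muscle markers summed to 138410 to 199798 CPM in WT and 119645 to 134968 in TSK. Of the 8, 0 passed with edgeR or with limma-trend, which used no TMM scaling. With edgeR 5 were lower at an unadjusted p below 0.05, and 6 were lower with DESeq2. The median log2 fold change was 2.92 for the adipocyte and -0.77 for the muscle list. Tendon and fascia markers summed to 48.1 to 134 CPM in WT and 76.0 to 77.8 in TSK, endothelial markers to 117 to 138 and 176 to 332, and macrophage markers to 120 to 179 and 213 to 599. Their median log2 fold changes were 0.44, 0.66 and 0.98. Most of the tendon and fascia sum came from Thbs4, and the tested genes of that list split in sign. Thbs4 and Scx had values of -0.87 and -0.44, and Tnmd and Mkx of 2.19 and 1.32, with 0 passing in edgeR. Schwann cell markers summed to 109 to 220 CPM in WT and 206 to 373 in TSK, keratinocyte markers to 3712 to 7164 and 3968 to 6703, with medians of 0.54 and -0.30. Pericyte and smooth muscle markers summed to 1896 to 2300 and 1494 to 1766, most of it from Des, which muscle fibres also express (1752 to 2137 deposited CPM in WT and 1209 to 1365 in TSK). The other 4 of the 5 had positive log2 fold changes, the median of the list was 0.54, and Myh11 rose by 0.79 (edgeR adjusted p = 0.0366). The dermal and epidermal markers expected of skin were thus present in every library, with a large share of muscle RNA.

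Genes with the nearest profile over the 6 libraries were sought among 12010 genes with a mean of at least 5 CPM, by the root mean square distance of centred log2 CPM. Nearest to the mean of Col6a1, Col6a2 and Col6a3 were Crispld2 (distance 0.119), Mmp19 (0.126) and Pdgfra (0.135), a growth factor receptor of fibroblasts. Their adjusted p were 0.413, 0.549 and 0.388 (edgeR). Nearest to Col14a1 were Htra3 (0.0933), a secreted serine protease, Fstl1 (0.199), a secreted glycoprotein, and Pamr1 (0.221). Nearest to Col12a1 were Chpf (0.195), an enzyme of chondroitin synthesis, Lurap1l (0.211) and Tsku (0.214), a small leucine-rich proteoglycan. Htra3 had a log2 fold change of 2.16 (edgeR adjusted p = 0.013) and Chpf of 1.21 (edgeR adjusted p = 0.0304), close to the values of the collagens they were matched to, and the match itself used these libraries. The call of Htra3 was lost without WT 3 (adjusted p = 0.0674). That of Chpf was lost without WT 2, WT 3, TSK 2 or TSK 3 (adjusted p = 0.092, 0.0831, 0.066 and 0.0692).

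Further chains of the same families were low in this skin. Col21a1, 1 of 8 genes in this list, had no entry under that name among the 55291 genes, so it has no level here. Col6a4, Col9a1 and Col9a2 had too few counts to be tested, and 4 were tested. Of the 4, 1 was lower at an adjusted p of 0.05 and 0 were higher, with edgeR, DESeq2 and limma-trend alike and at an unadjusted p below 0.05. Col19a1, a basement membrane zone collagen also known from muscle, fell from 5.30 ± 0.334 to 1.88 ± 0.267 CPM, by 1.50 on the log2 scale (SE 0.20, edgeR adjusted p = 0.0123). The call was lost without WT 3 (-1.53, adjusted p = 0.0584). Col9a3, Col20a1 and Col22a1 had values of 0.23, -0.18 and -0.39, and Col20a1 changed sign with library size only (0.10).

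Receptors that bind collagen VI or other collagens were read next. Of 10 genes, 2 rose with edgeR, and the median log2 fold change was 0.53. DESeq2 called 3 and limma-trend 4. Antxr1, an anthrax toxin receptor that binds collagen VI, rose from 70.2 ± 8.65 to 123 ± 16.2 CPM (0.80, SE 0.15, edgeR adjusted p = 0.0294). Ddr2, a tyrosine kinase known mainly as a receptor of fibrillar collagens, rose from 78.8 ± 15.1 to 223 ± 59.2 CPM (1.50, SE 0.22, edgeR adjusted p = 0.0148). Antxr2, the sister receptor, had a value of 0.67 (edgeR adjusted p = 0.0679), and Cspg4, the NG2 proteoglycan that binds collagen VI, of 0.47 (edgeR adjusted p = 0.239). Leaving out WT 3 took the count from 2 to 0, and leaving out TSK 1, TSK 3 or WT 2 took it to 1.

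Among 14 matrix proteins known to bind these collagens or to share microfibrils with them, 4 rose, with a median log2 fold change of 1.37. They were Fbn1 (2.54, edgeR adjusted p = 0.00327), Mfap5 (2.61, edgeR adjusted p = 0.00327) and Mfap2 (1.94, edgeR adjusted p = 0.0107), which encode microfibril proteins, and Fn1 (1.76, edgeR adjusted p = 0.0148), which encodes fibronectin, a cell adhesion protein with fibrils of its own. DESeq2 called 6 of the 14 higher and limma-trend 7. Tnxb and Dcn, whose products bind collagens XII and XIV, missed the threshold with edgeR and passed it with DESeq2, limma-trend and scaling by library size only. Tnxb, which encodes tenascin X, was 601 ± 208 CPM in WT and 1287 ± 333 in TSK (1.10, SE 0.30, edgeR adjusted p = 0.0888, DESeq2 adjusted p = 0.00185). Dcn, which encodes decorin, was 123 ± 38.9 and 219 ± 64.6 (0.84, SE 0.28, edgeR adjusted p = 0.143, DESeq2 adjusted p = 0.0327). Without WT 3 the list held 2 calls, since Mfap2 (adjusted p = 0.0561) and Fn1 (adjusted p = 0.0831) were lost.

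Of 11 genes for the processing, folding and cleavage of these collagens, 3 rose with edgeR, with a median log2 fold change of 0.31. DESeq2 called 5 and limma-trend 8. Bmp1, the proteinase that trims procollagens, rose from 56.8 ± 7.93 to 133 ± 29.6 CPM (1.23, SE 0.19, edgeR adjusted p = 0.0171). Mmp14, a membrane-bound metalloproteinase, rose from 48.1 ± 12.9 to 115 ± 33.9 CPM (1.26, SE 0.26, edgeR adjusted p = 0.0369). Mmp11, a metalloproteinase that cleaves the Col6a3 chain, rose from 8.48 ± 6.29 to 45.4 ± 19.5 CPM (2.42, SE 0.50, edgeR adjusted p = 0.0387), and the value was 3.24 without WT 3, the highest WT mouse. Serpinh1, the collagen chaperone HSP47, had a value of 0.67 (edgeR adjusted p = 0.0906). The count fell to 1 when any library other than TSK 2 was left out.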

How the data were processed

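Stranded, ribosomal RNA-depleted libraries of dorsal skin were sequenced as single-end reads of 50 bases. The authors aligned them with STAR to mm10 and quantified Ensembl genes in Partek Flow (version 11.0). The deposited tables hold estimated counts per gene and CPM, which the authors obtained by scaling counts to 1000000 per library. Per library, 43.3% to 45.4% of the non-zero counts were whole (tolerance 0.001). The design had assumed raw counts, and the deposited values were therefore rounded before testing.

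Genotypes came from the labels. Genotypes were compared with the quasi-likelihood test of edgeR 4.0.16 (R 4.3.3) with TMM scaling and filterByExpr, which kept 19971 genes, and Benjamini-Hochberg adjustment over all of them. DESeq2 1.42.0, limma-trend (limma 3.58.1) on log2(deposited CPM + 1 or 0.1), other scalings and filters, a replicate block and the removal of each library were alternatives. Ratios of genes within a library, with 0.5 added to each count, were compared by exact permutation over the 6 mice. Lists were described by counts and medians only. Transcript lengths, exons and coordinates came from GENCODE M21 (GRCm38), and near-identical stretches were sought with BLAST.

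The members and lists were chosen with earlier results of these data known. Genes named were the 8 members, genes of the fixed lists (called ones first) and, for each of 3 profiles, the 3 nearest genes. The tests were tried on simulated counts with known changes before use. Replicate numbers did not pair the mice by the labels. Replicate libraries differed from each other by far more than sampling noise (chi-square per degree of freedom of 8.02 or more). Single-cell data of the study are not analysed here.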

Additional observations from a re-analysis of the deposited data

How the results depend on the processing

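The 8 members gave 1 call of a higher level at an adjusted p of 0.05 in the main comparison, and 2 with library size only, without the low-count filter, with DESeq2 and with the replicate block, in each case Col14a1 and Col12a1. Limma-trend, which used no TMM scaling, gave 3 calls with either pseudocount, those 2 and Col16a1. At the thresholds of the study the count was 0, beside 0.255% of all genes higher in TSK, and 1 with DESeq2, beside 0.894%. It was 1 with library size only, without the filter and with the replicate block, and 2 with limma-trend. For these settings the share of all genes at those thresholds is not given here, so their counts do not set the members apart. Leaving out each library gave 1 to 1 calls at 0.05 and 0 to 0 at the thresholds of the study, but without WT 3 the call was Col12a1 and not Col14a1. Over 15 alternatives Col14a1 ranged from 1.91 to 2.46 on the log2 scale and was called in 14 (adjusted p = 7.83e-12 to 0.0605). Col12a1 ranged from 1.02 to 1.59 and was called in 7 (adjusted p = 0.000759 to 0.159), and Col16a1 from 0.29 to 0.70 and was called in 2. Calls lower in TSK stayed at 0.

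Signs turned for Col6a3 (-0.25 without WT 1 and -0.15 without TSK 3, in a range of -0.25 to 0.27 over the libraries left out), for Col6a6 (0.14 with library size only, 0.15 and 0.16 with limma-trend, 0.26 without WT 2 and 0.01 without TSK 2, in a range of -0.42 to 0.26) and for Col20a1 (0.10 with library size only, 0.08 and 0.10 with limma-trend). The cause was not tested. Of 120 values of the members under alternatives, 103 kept direction and side of the threshold, 9 passed it newly, 1 lost it and 7 changed sign. All 192 values of the ratios under alternatives moved by less than 1 SD between mice. For the values without 1 library this was fixed in advance, since leaving out 1 of 3 mice cannot move a difference that far. The count therefore does not show that the ratios are stable.

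The receptor list held 2 higher genes, against 4 with library size only, limma-trend and the replicate block. The matrix partner list held 4, against 8 with library size only and 7 with limma-trend. The fibrillar list held 0, against 5 with library size only, DESeq2 and limma-trend, 4 without the filter and 1 with the block. The processing list held 3, against 7 with library size only, 5 with DESeq2 and 8 with limma-trend.

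The replicate block gave Col14a1 a log2 fold change of 2.18 (adjusted p = 0.00427) and Col12a1 1.24 (adjusted p = 0.0133). Deviations of same-numbered WT and TSK mice correlated at 0.0112, 0.167 and -0.0938, so the numbers were not taken as pairs. With 3 mice per group, exact tests cannot go below 0.1, and Col6a5 is limited by its depth.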
